A study of Mus musculus with 24 samples.

Results

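The miRNA content of serum extracellular vesicles (EVs) was compared between 24 h (S24h) and 6 h (S6h) after a tibia fracture in mice, across the mature miRNAs with at least 10 CPM (the count scaled to the library total) in at least 6 of the 12 libraries. Of 1966 mature miRNAs in the table, 561 had a count in these libraries and 249 met this minimum. The mice were male wild-type C57BL/6 animals of 14-16 weeks, and each of the 6 libraries per group came from another mouse. All operated mice had an open fracture of the tibia that was stabilized with a pin, under isoflurane and buprenorphine, and they were assigned to their time point at random. Libraries of unoperated, saline-injected mice (Control) and of mice at 72 h (S72h), 6 each, entered the same model, and their values are given beside those of S6h and S24h where useful. The S24h and S72h mice, but not the S6h mice, were given analgesia each day, so that time after surgery and dosing cannot be told apart. Control is the set kept for the 6 h mice, and the control animals kept for the later times were not analysed here. The paper states that each set had controls of its own animal batch, that all libraries were pooled for sequencing, and that its control sets did not differ statistically. Whether the S6h and S24h mice were of one animal batch, or their libraries were prepared together, is not given in the sources used here, and such a difference cannot be told apart from time. Serum EVs carry RNA from blood cells, vessel walls and distant organs at once, so that a change in the number of vesicles from a tissue and a change in the miRNA per vesicle cannot be told apart.

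miRNAs are short RNAs that are cut from a hairpin, loaded into Argonaute proteins and guided to messenger RNAs by their seed, the stretch from base 2 to base 8. The arms of a hairpin are named 5p and 3p, and miRNAs with one seed form a family that shares most of its targets. In blood, miRNAs travel inside cells, in EVs and with protein carriers, and several are so enriched in one cell type that they serve as its marker, such as miR-451a for red cells, miR-122-5p for liver or miR-1a-3p for striated muscle.

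The S24h libraries were shallower than the S6h libraries. Their total counts ranged from 66652 to 143856 (median 75030), against 102568 to 471801 (median 177467.5) at 6 h. The mean log2 total of S24h minus that of S6h was -1.12 (exact two-sided permutation test, p = 0.0108, adjusted over 3 whole-library values p = 0.0162, n = 6 per group). Thinned by calculation to the smallest of the 12 totals, the libraries held an expected 282 ± 31.7 miRNAs at 6 h and 237 ± 11.1 at 24 h (SD, n = 6), and the 6 S24h libraries ranged from 217 to 251 against 245 to 324. This difference passed the same exact permutation test (p = 0.00433, adjusted p = 0.0130), but counting only miRNAs with at least 5 reads the difference was -0.0526 miRNAs (exact permutation test, p = 0.994). The 10 most abundant miRNAs held 50.9 ± 2.52% of the counts at 6 h and 52.1 ± 2.96% at 24 h (SD, n = 6; exact permutation test, adjusted p = 0.485). A count of 0 allows up to 3 counts, or between 20.9 and 45 CPM in the S24h libraries and between 6.36 and 29.2 CPM in the S6h libraries, for counting error only. By group median, miR-1a-3p (100889 CPM), miR-486b-5p and miR-21a-5p were the most abundant at 6 h, and let-7a-5p (66061 CPM), miR-21a-5p and let-7f-5p at 24 h.

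The sequences below are those of a selection of the miRNAs called below and of miR-29b-3p, which shares the seed of miR-29a-3p, from RefSeq's table for GRCm38.p6. They are written 5′ to 3′ with the seed in capitals, first for miRNAs lower at 24 h and their families and then for miRNAs higher at 24 h.
miR-29a-3p: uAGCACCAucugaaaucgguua
miR-29c-3p: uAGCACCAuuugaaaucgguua
miR-29b-3p: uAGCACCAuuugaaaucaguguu
miR-27b-3p: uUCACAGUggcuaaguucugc
miR-27a-3p: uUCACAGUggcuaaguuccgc
miR-30a-5p: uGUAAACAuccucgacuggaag
miR-30e-5p: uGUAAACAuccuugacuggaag
miR-199a-3p: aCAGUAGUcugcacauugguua
miR-199b-3p: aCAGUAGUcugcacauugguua
miR-93-5p: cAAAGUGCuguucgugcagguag
miR-106b-5p: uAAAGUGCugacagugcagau
miR-22-3p: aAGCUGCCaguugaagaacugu
miR-215-5p: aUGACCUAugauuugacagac
miR-16-5p: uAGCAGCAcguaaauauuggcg
miR-541-5p: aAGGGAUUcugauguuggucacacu
miR-423-5p: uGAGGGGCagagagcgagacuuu
miR-423-3p: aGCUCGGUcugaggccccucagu
miR-484: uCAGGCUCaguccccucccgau
miR-221-3p: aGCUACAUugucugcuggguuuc
let-7b-5p: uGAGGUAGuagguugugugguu
miR-339-5p: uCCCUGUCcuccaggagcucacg
miR-674-5p: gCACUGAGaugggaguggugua
Within the pairs miR-29a-3p and miR-29c-3p, miR-27a-3p and miR-27b-3p, and miR-30a-5p and miR-30e-5p, the members differ by 1 base, outside the seed. miR-199a-3p and miR-199b-3p are the same sequence from different hairpins, so that reads of one cannot be told from reads of the other and their rows are not independent. Of the 52 miRNAs called below, 39 have an entry in that table. The others are miR-143-3p, miR-320-3p, miR-145a-5p, miR-145a-3p, miR-1a-3p, miR-375-3p, miR-185-5p, miR-150-5p, miR-378a-5p, miR-133a-3p, miR-328-3p, miR-151-5p and miR-30b-5p.

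At 24 h against 6 h, 52 of the 249 miRNAs (20.9%) were called by edgeR's quasi-likelihood test, which required a 1.5-fold difference besides an adjusted p below 0.05. Of these, 36 (14.5% of those tested) were lower and 16 (6.43%) higher at 24 h. The 36 include 3 miRNAs at 0 in every S24h library, which met the CPM minimum through S6h alone and also count among the non-overlapping miRNAs below. The lower miRNAs were led by miR-143-3p of a smooth muscle transcript, by miR-27b-3p, and by miR-29a-3p, whose family targets collagen messages. The higher miRNAs were led by miR-320-3p, both arms of miR-423 and miR-484. Past a 4-fold change there were 13 lower and 2 higher miRNAs, with the bound against 3 counts per library used for miRNAs at 0 in all S24h libraries. For 29 miRNAs (11.6%) the 6 values at 24 h did not overlap the 6 values at 6 h, 20 of them lower and 9 higher, and 26 of the 29 were called. At an unadjusted p under 0.05 there were 73 miRNAs. Of the 52, 42 had a median of at least 100 CPM in both groups.

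The balance of the directions depended on the scaling. With TMM scaling the median log2 fold change of all 249 miRNAs was -0.24, and it lay between -0.01 and 0.01 with RLE, upper-quartile or total-count scaling. The calls were then 22 higher and 22 lower with RLE or upper-quartile scaling, 20 and 19 on column totals alone, and 30 and 29 with DESeq2. The fold changes below are those with TMM scaling, to be read against the median of -0.24. With the log2 library total as a covariate the calls fell to 21, of which 8 were higher and 13 lower, and the part of depth in the other calls cannot be told apart from that of time. Leaving out 1 mouse gave 33 to 50 calls, with 33 without S24h replicate 3, without S6h replicate 4 or without S6h replicate 6. With each mouse left out in turn, 31 of the 52 stayed called, and the other 21 were lost in 4 to 11 of the 12 fits. Of the 52 miRNAs, 16 were called under each of 15 other settings and with each mouse left out, 10 of them lower and 6 higher. The 10 include miR-541-5p, which met the CPM minimum through S6h alone. Where tested, all 52 kept their direction throughout these settings and omissions. The setting of adjusted p alone is the main fit itself, so it could lose no call. The test for a fold change above 1.5 uses the fold changes of the main fit, so it could turn no direction.

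**Figure D1:**
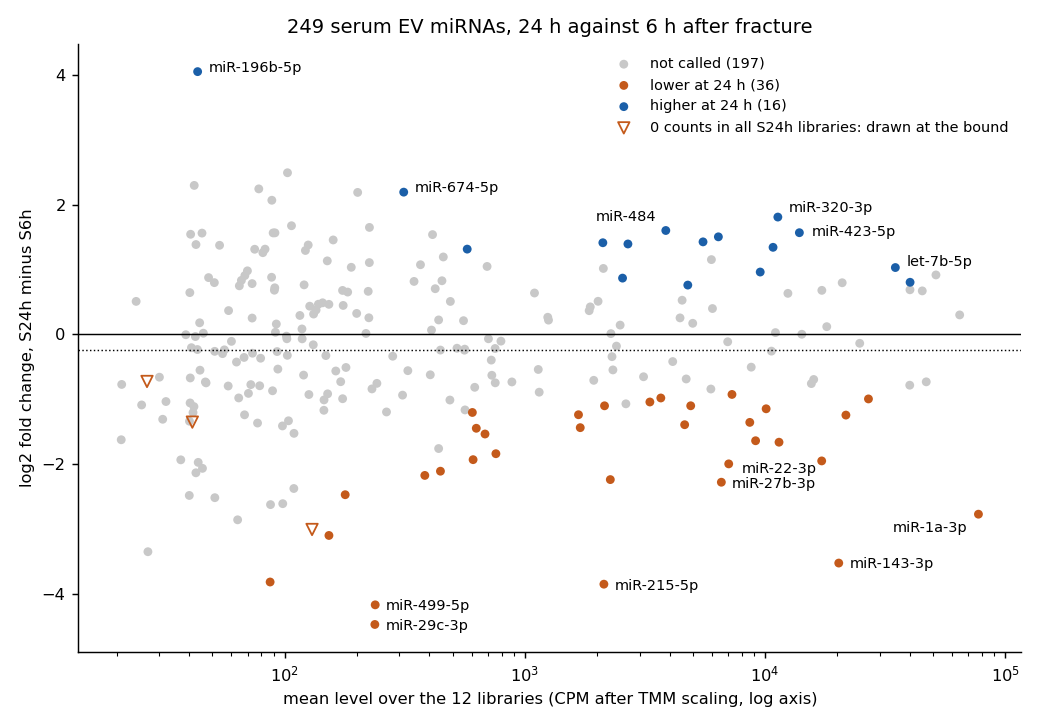
Each point is 1 of the 249 miRNAs, placed by its mean level over the 6 S6h and 6 S24h libraries (CPM after TMM scaling, log axis) and its log2 fold change of S24h against S6h, with the called miRNAs coloured by direction and the dotted line at the median of -0.24. The 3 miRNAs with 0 counts in every S24h library are drawn as open triangles at the smallest change that 3 counts per library would allow, and called miRNAs of both directions lie at low and high levels.

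The transcript of miR-143 and miR-145a, made in smooth muscle, moved in both directions. miR-143-3p lay between 8415 and 66121 CPM at 6 h (median 36582) and between 2842 and 3747 CPM at 24 h (median 3121). All 6 values at 24 h were below all 6 at 6 h, and the mean fell from 37293 to 3233 CPM (log2 fold change -3.53, standard error 0.52, adjusted p = 1.98e-05). The Control median of miR-143-3p was 16079 CPM and the S72h median 4566 CPM. S6h replicate 3 was low for this miRNA within its group, and it still lay above every S24h library. The neighbouring miR-145a gave 2 called arms with opposite signs. miR-145a-5p, the main arm, rose, from 1642 to 4479.9 CPM at 6 h to 4562 to 11929.8 CPM at 24 h, without overlap (log2 fold change 1.43, standard error 0.31, adjusted p = 0.00133). miR-145a-3p fell, with 27 to 431 counts per library at 6 h and 4 to 20 counts at 24 h (log2 fold change -2.18, standard error 0.60, adjusted p = 0.0102). With the depth covariate miR-143-3p and miR-145a-5p stayed called and miR-145a-3p did not, at a log2 fold change of -2.14 (adjusted p = 0.0667).

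Of 6 tested striated muscle miRNAs, which are made in skeletal muscle and heart, 3 were lower at 24 h (50%, against 14.5% of all tested) and none higher (median log2 fold change -1.47, and -0.49 with the log2 library total as a covariate). miR-1a-3p, one of the most abundant miRNAs of muscle fibres, lay between 48595 and 271029 CPM at 6 h (median 100889) and between 7994 and 27862 CPM at 24 h (median 21144) (log2 fold change -2.77, standard error 0.67, adjusted p = 0.00359). The groups did not overlap, and the Control median of 37391 CPM lay between those of S6h and S24h. miR-133a-3p, which is transcribed with miR-1a, had a median of 32126 CPM at 6 h and 5662 CPM at 24 h (log2 fold change -1.95, standard error 0.58, adjusted p = 0.0174), and its groups overlapped. miR-499-5p, from a myosin gene of heart and slow fibres, had 520.1 CPM at 6 h and was at 0 in 4 of the 6 S24h libraries (log2 fold change -4.17, standard error 1.16, adjusted p = 0.0113). miR-206-3p, found in skeletal muscle and not heart, was not called (log2 fold change -0.75, 95% interval -2.22 to 0.72). Together the listed muscle miRNAs held 6.02% to 26.6% of the counts at 6 h (median 11.8%), 1.57% to 4.36% at 24 h (median 3.35%) and 3.42% to 9.03% in Control (median 5.33%). The same 3 miRNAs were called with each other scaling and with DESeq2. With that covariate none of the 6 was called, and the adjusted p was 0.225 for miR-1a-3p, 0.522 for miR-133a-3p and 0.0825 for miR-499-5p. Over the 15 other settings the log2 fold change of miR-1a-3p lay between -2.83 and -1.40. That of miR-133a-3p lay between -2.06 and -0.88 and that of miR-499-5p between -4.63 and -3.49.

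**Figure D2:**
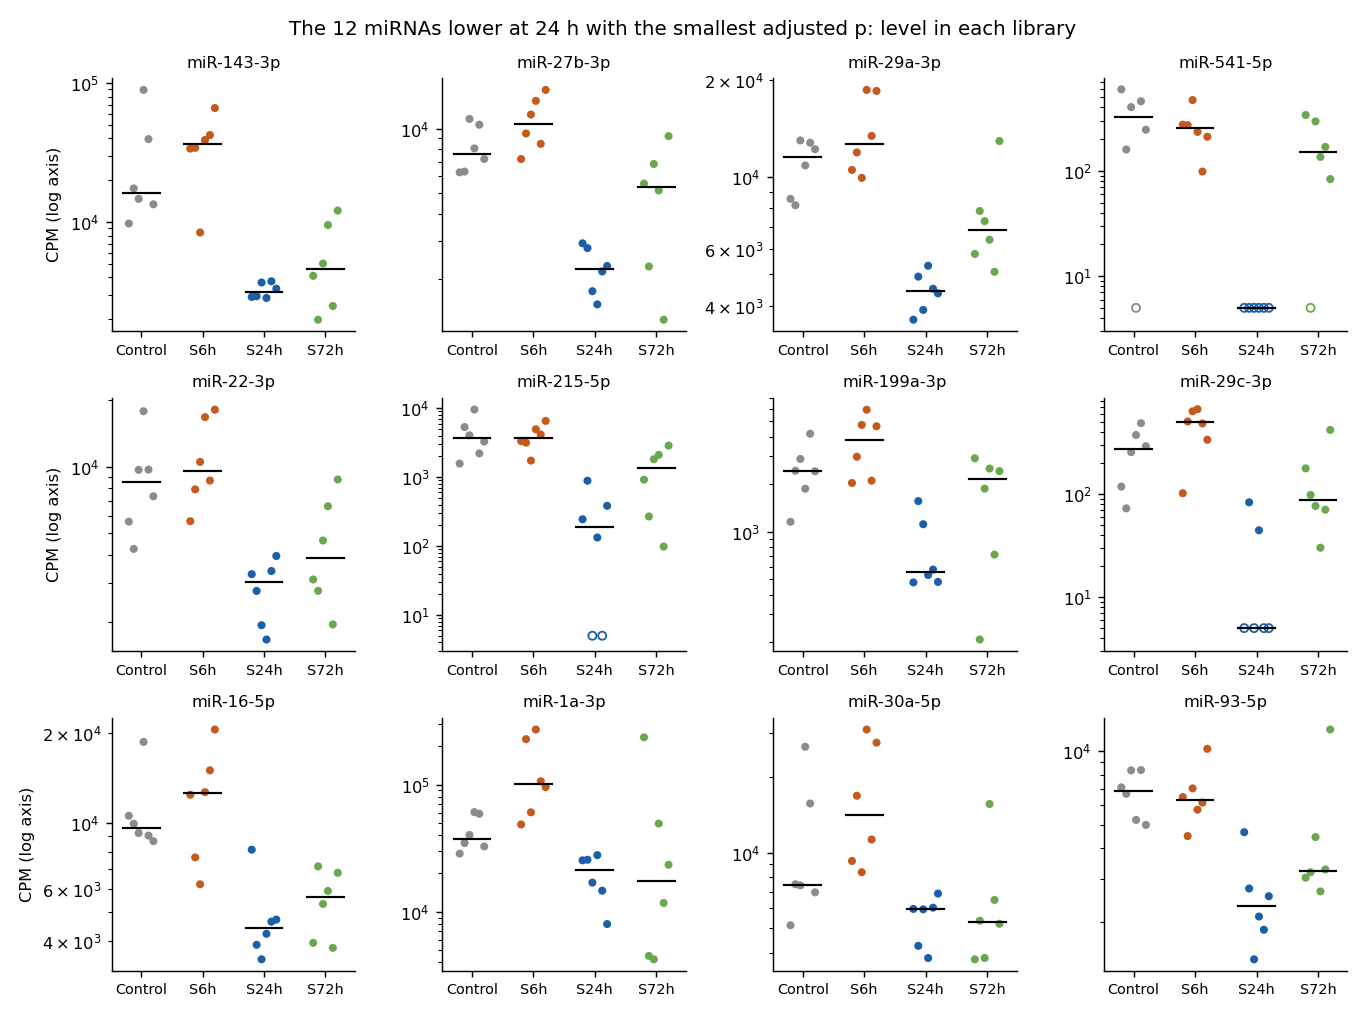
The level of the 12 lower miRNAs with the smallest adjusted p in each of the 24 libraries (CPM, log axis) in the Control, S6h, S24h and S72h groups, with 1 point per mouse and the group median as a bar. Open circles at the bottom mark libraries with 0 counts, and for 10 of the 12 miRNAs, all but miR-16-5p and miR-93-5p, the S24h points lie wholly below the S6h points.

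The miR-29 family, known for its many collagen and matrix targets, had 3 tested members, of which 2 were lower (66.7%, against 14.5% of all tested) and none higher. miR-29a-3p, the most abundant, lay between 9947 and 18629.9 CPM at 6 h (median 12676) and between 3617 and 5315 CPM at 24 h (median 4438) (log2 fold change -1.64, standard error 0.26, adjusted p = 3.13e-05). miR-29c-3p had 102 to 663 CPM at 6 h and was at 0 in 4 of 6 libraries at 24 h, with at most 7 counts in the others (log2 fold change -4.47, standard error 0.96, adjusted p = 0.00115). Neither overlapped between the groups. miR-29b-3p was near the detection limit, at 0 in 3 S24h libraries, and its interval ran -2.87 to 1.8 (log2 fold change -0.54). Both calls held under each scaling, with DESeq2 and with the depth covariate. The family's share of all counts was 1.09% to 1.74% at 6 h and 0.39% to 0.60% at 24 h.

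miR-27b-3p and miR-24-3p share a hairpin cluster on chromosome 13, and miR-23a-3p, miR-27a-3p and miR-24-2-5p a paralogous cluster on chromosome 8. These clusters are active in vessels, fat and blood-forming cells. Of 6 tested members, 4 were lower (66.7%, against 14.5% of all tested) and none higher. miR-27b-3p lay between 7225 and 15129 CPM at 6 h (median 10559) and between 1525 and 2930.4 CPM at 24 h (median 2234) (log2 fold change -2.28, standard error 0.34, adjusted p = 1.98e-05), and its Control median was 7659.9 CPM. For miR-27a-3p, with the same seed, the medians were 6587 and 3266 CPM, also without overlap (log2 fold change -1.1, standard error 0.29, adjusted p = 0.00794). miR-24-3p, which both clusters make, had medians of 35832 and 16079 CPM (log2 fold change -1.0, standard error 0.28, adjusted p = 0.0119). miR-24-2-5p, the other arm of a miR-24 hairpin, had 2239 and 893 CPM (log2 fold change -1.24, standard error 0.42, adjusted p = 0.0353), a call lost in 6 of the 12 fits that left out a mouse. miR-23a-3p, from the same chromosome 8 transcript as miR-27a, was not called, at medians of 52175 and 29876 CPM (log2 fold change -0.78, adjusted p = 0.0968). With RLE scaling 3 of the 6 were called, on column totals 1 and with the depth covariate 2, all lower, and miR-27b-3p was among them each time. The sequences of miR-27b-3p and miR-27a-3p lie at chr13:63300760-63300780 and chr8:84208727-84208747 on the plus strand of GRCm38. The first is inside an exon of 2010111I01Rik, and no host gene is annotated for the second.

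The miR-30 family, broadly made and abundant in kidney and heart, had 5 tested members, 3 of them lower (60%, against 14.5% of all tested) and none higher. miR-30a-5p lay between 8362 and 30977 CPM at 6 h (median 14081) and between 3805 and 6876 CPM at 24 h (median 5961), without overlap (log2 fold change -1.66, standard error 0.40, adjusted p = 0.00364). miR-30e-5p, from an intron of Nfyc, had 6412 to 14449.5 CPM at 6 h and 4193 to 5928 CPM at 24 h, also without overlap (log2 fold change -0.93, standard error 0.31, adjusted p = 0.0352). miR-30b-5p was lower with overlapping groups (log2 fold change -1.1, standard error 0.40, adjusted p = 0.0438). miR-30d-5p (log2 fold change -0.70, adjusted p = 0.0885) and miR-30c-5p (-0.26, adjusted p = 0.479) were not called. Of the 3 lower members 1, miR-30a-5p, was called with RLE, upper-quartile or total-count scaling or with DESeq2, and none with the depth covariate. The passenger arm miR-30a-3p was lower as well, from a median of 955 to 251 CPM (log2 fold change -1.45, standard error 0.48, adjusted p = 0.0351). Its call was lost under 6 of the 15 other settings and in 7 of the 12 fits that left out a mouse, and the calls of miR-30e-5p and miR-30b-5p were each lost in 7 of these fits.

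miR-199a-3p and miR-199b-3p, a sequence of mesenchymal cells and platelets, were lower without overlap. The row of miR-199a-3p lay between 2037 and 5924 CPM at 6 h (median 3821) and between 478 and 1564 CPM at 24 h (median 555) (log2 fold change -2.24, standard error 0.45, adjusted p = 0.000496). The row of miR-199b-3p, with the same sequence, had medians of 683 and 150.4 CPM (log2 fold change -2.11, standard error 0.54, adjusted p = 0.00517). The miR-199a-2 hairpin is at chr1:162217814-162217923 within Dnm3os, the miR-199a-1 hairpin on chromosome 9 and the miR-199b hairpin on chromosome 2.

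The hairpins of miR-93, miR-106b and miR-25 sit together inside Mcm7, a gene of DNA replication, at chr5:138165332-138165807. Of 6 tested arms of this cluster, the 3 main arms were lower (50%, against 14.5% of all tested) and none was higher. miR-93-5p lay between 4492 and 10238 CPM at 6 h (median 6328) and between 1403 and 4659 CPM at 24 h (median 2324), with overlap (log2 fold change -1.39, standard error 0.34, adjusted p = 0.00370). miR-25-3p had medians of 13911 and 6086 CPM (log2 fold change -1.15, standard error 0.36, adjusted p = 0.0244), and miR-106b-5p of 837 and 321 CPM (log2 fold change -1.2, standard error 0.42, adjusted p = 0.0413). The calls of miR-25-3p and miR-106b-5p were lost in 4 and 10 of the 12 fits that left out a mouse, and neither was called with RLE scaling. Of 7 tested arms of the related miR-17 to miR-92a cluster on chromosome 14, none was called, against 20.9% of all tested. miR-92a-3p, with the seed of miR-25-3p, had a mean of 14213 CPM at 6 h and 14228 CPM at 24 h (log2 fold change 0.00, 95% interval -0.56 to 0.57).

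miR-22-3p, which is abundant in heart and skeletal muscle, lay between 5680.0 and 18130.0 CPM at 6 h (median 9604) and between 1658 and 3957 CPM at 24 h (median 3012), without overlap (log2 fold change -2.0, standard error 0.38, adjusted p = 0.000279). Its mature sequence is at chr11:75463772-75463793 in an exon of Mir22hg. miR-215-5p, made in intestine, kidney and liver, lay between 1742 and 6567 CPM at 6 h (median 3751) and between 0 and 889 CPM at 24 h (median 189), and was at 0 in 2 S24h libraries (log2 fold change -3.85, standard error 0.77, adjusted p = 0.000496). Its relatives of the same tissues were not called. miR-192-5p, with the seed of miR-215-5p, had a log2 fold change of -0.55 (95% interval -1.8 to 0.70), and miR-194-5p, which neighbours miR-215 on chromosome 1, of -1.2 (95% interval -2.71 to 0.32). miR-16-5p, a general regulator of the cell cycle that red cells also hold in large amounts, had a median of 12548 CPM at 6 h and 4442 CPM at 24 h, and the groups overlapped through S24h replicate 1 (log2 fold change -1.36, standard error 0.30, adjusted p = 0.00119). Of its 6 tested family members it alone was called (16.7%, near the 14.5% of all tested). miR-15b-5p, the next most abundant, lay between 2027 and 3168 CPM at 6 h (median 2294) and between 1219 and 1805 CPM at 24 h (median 1438), without overlap but with an adjusted p of 0.0719 (log2 fold change -0.71).

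Of 12 tested miRNAs of the imprinted Dlk1-Dio3 cluster on chromosome 12, 2 (16.7%, against 14.5% of all tested) were lower and none higher (median log2 fold change -1.09). With the depth covariate the median was 0.034, and with that covariate or with RLE, upper-quartile or total-count scaling miR-541-5p was the one called member. miR-541-5p had 98.5 to 469.6 CPM at 6 h, with a median of 253, and 0 counts in each of the 6 S24h libraries. Against 3 counts per library, which average 32.3 CPM after scaling, it was at least 8.05-fold lower at 24 h (adjusted p = 0.000130). It was counted in 5 of 6 Control libraries and in 5 of 6 S72h libraries, and its S72h median was 152.1 CPM. Its mature form has 25 bases, longer than the reads the authors kept, so that its counts come from shortened forms. miR-434-3p had medians of 1161 and 258 CPM (log2 fold change -1.84, standard error 0.62, adjusted p = 0.0357), and its call was lost in 7 of the 12 fits that left out a mouse. The other miRNAs at 0 in every S24h library were miR-378a-5p, at least 2.56-fold lower from 20.3 to 183 CPM (adjusted p = 0.0174), and miR-1981-3p, at least 1.65-fold lower from 32.4 to 88.6 CPM (adjusted p = 0.0233). These 3 were the members that met the CPM minimum in all 6 S6h libraries and in no S24h library, and none showed the reverse. They entered the comparison through S6h alone, so that their p-values are no support beyond that selection.

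Of 7 tested epithelial miRNAs, 2 were lower (28.6%, against 14.5% of all tested) and none higher. miR-375-3p, of islets and gut epithelium, had medians of 1017 and 219.9 CPM (log2 fold change -1.93, standard error 0.48, adjusted p = 0.00428). miR-200a-3p, known for keeping cells epithelial, was at 0 in 4 S24h libraries and had 102 to 479 CPM at 6 h (log2 fold change -3.1, standard error 1.06, adjusted p = 0.0383). With RLE, upper-quartile or total-count scaling miR-375-3p alone was called, and with the depth covariate neither was, with a log2 fold change of -1.75 for miR-375-3p (adjusted p = 0.0565) and of -2.29 for miR-200a-3p (adjusted p = 0.195). The call of miR-200a-3p was lost in 8 of the 12 fits that left out a mouse. miR-203-3p of the skin was not called (log2 fold change -0.89, adjusted p = 0.243). Of 4 tested brain-enriched miRNAs 1 (25%, against 14.5% of all tested), miR-218-5p, was lower and at 0 in 5 S24h libraries (log2 fold change -3.82, standard error 1.36, adjusted p = 0.0433). It was not called with RLE, upper-quartile or total-count scaling, with DESeq2 or with the depth covariate, and the call was lost in 10 of the 12 fits that left out a mouse. The neuronal marker miR-124-3p did not meet the CPM minimum, and miR-137-3p, miR-138-5p, miR-153-3p and miR-212-3p were at 0 in all 12 libraries.

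Further miRNAs were lower at 24 h. miR-125b-5p had medians of 4858 and 2353 CPM (log2 fold change -0.98, standard error 0.33, adjusted p = 0.0351), and the other 4 tested miRNAs of the miR-99/100 and miR-125 families were not called. miR-101a-3p, a repressor of the chromatin enzyme Ezh2, had medians of 734 and 295 CPM (log2 fold change -1.54, standard error 0.55, adjusted p = 0.0435). miR-574-3p (log2 fold change -1.44, standard error 0.42, adjusted p = 0.0150) and miR-335-5p, from an intron of the imprinted gene Mest (log2 fold change -2.47, standard error 0.89, adjusted p = 0.0435), were lower as well. miR-335-5p had 235 to 374 CPM in the S6h libraries and 0 to 192 CPM in the S24h libraries, without overlap. The call of miR-335-5p rests on few reads, with at most 13 counts in a S24h library. The calls of miR-125b-5p, miR-101a-3p and miR-335-5p were lost under 8, 10 and 8 of the 15 other settings and in 7, 9 and 11 of the 12 fits that left out a mouse, and with the depth covariate the log2 fold change of miR-101a-3p was -0.48.

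Blood cell miRNAs were mixed in direction. Of 6 tested red cell miRNAs, miR-451a was lower, from a median of 26583 CPM to 11675 CPM (log2 fold change -1.25, standard error 0.42, adjusted p = 0.0357), and none was higher. This 1 of 6 (16.7%) is near the 14.5% of all tested, and with RLE, upper-quartile or total-count scaling miR-451a was not called. Its call was lost in 6 of the 12 fits that left out a mouse. miR-486b-5p (log2 fold change -0.73, adjusted p = 0.203) and miR-486a-5p (-0.76, adjusted p = 0.160), which are near-identical, and miR-144-5p (0.64, adjusted p = 0.395) were not called. The log2 ratio of miR-451a to miR-23a-3p, in use as a gauge of red cell lysis, had a median of -0.90 at 6 h (-1.05 to -0.21) and -1.39 at 24 h (-1.89 to -0.29). The red cell list held 7.31% to 12.5% of the counts at 6 h (median 11.6%) and 2.98% to 12.2% at 24 h (median 6.44%). Scaling by TMM without the red cell miRNAs left 50 calls, 13 higher and 37 lower, and the part of red cell RNA in single calls was not tested. Of 9 tested leukocyte miRNAs 1 was higher (11.1%, against 6.43% of all tested) and 1 lower (11.1%, against 14.5%). miR-150-5p of mature lymphocytes was higher, from a median of 1085 to 2710.5 CPM (log2 fold change 1.41, standard error 0.40, adjusted p = 0.0113). miR-223-3p of myeloid cells and platelets was lower, from 4129.7 to 1903 CPM (log2 fold change -1.04, standard error 0.33, adjusted p = 0.0244). miR-223-3p was not called with RLE, upper-quartile or total-count scaling and was lost in 5 of the 12 fits that left out a mouse, and miR-150-5p was not called with the depth covariate. Of 11 tested platelet and endothelial miRNAs, 4 were lower (36.4%, against 14.5% of all tested) and 2 higher (18.2%, against 6.43%), with 3 and 2 by RLE scaling and 2 and 1 with the depth covariate. The 4 lower were miR-24-3p, miR-223-3p, which is also in the leukocyte list, and the rows of miR-199a-3p and miR-199b-3p. These rows hold the same sequence and are not independent, so that the 36.4% counts it more than once. miR-126a-3p, the endothelial marker, was not called (log2 fold change 0.25, 95% interval -0.41 to 0.92). The liver's miR-122-5p had 2139.5 to 29627 CPM at 6 h and 7787 to 45617 CPM at 24 h, and was not called (log2 fold change 0.68, 95% interval -1.27 to 2.63). Among 6 tested inflammation-responsive miRNAs none was called, against 20.9% of all tested. miR-21a-5p had a log2 fold change of 0.30 (95% interval -0.37 to 0.97) and miR-146a-5p, which NF-kB induces, of -0.65 (95% interval -1.35 to 0.04).

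The 16 higher miRNAs included a pair that is made without the nuclear enzyme Drosha. miR-320-3p, whose hairpin is capped, lay between 3525 and 7299 CPM at 6 h (median 4952) and between 12764 and 26387 CPM at 24 h (median 16941) (log2 fold change 1.81, standard error 0.29, adjusted p = 3.86e-05). miR-484 lay between 1415 and 2916 CPM at 6 h (median 1674) and between 4537 and 7801 CPM at 24 h (median 5694) (log2 fold change 1.6, standard error 0.31, adjusted p = 0.000365). Every S24h value of both exceeded every S6h value. The S72h medians of miR-320-3p and miR-484 were 13097 and 5065 CPM, and the Control medians 7777 and 2714 CPM. Both held 0.54% to 1.06% of the counts together at 6 h and 2.12% to 3.89% at 24 h.

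Both arms of miR-423, a hairpin in an intron of Nsrp1 at chr11:77078064-77078172 on the minus strand, were higher without overlap. miR-423-5p lay between 5307 and 10593 CPM at 6 h (median 6242) and between 17884 and 24579.5 CPM at 24 h (median 20524) (log2 fold change 1.57, standard error 0.26, adjusted p = 5.41e-05). miR-423-3p had medians of 3234 and 9215 CPM (log2 fold change 1.5, standard error 0.29, adjusted p = 0.000394). The log2 ratio of the arms was 1.07 ± 0.23 at 6 h and 1.16 ± 0.32 at 24 h (SD, n = 6), a difference of 0.10 (95% interval -0.51 to 0.71). The S72h median of miR-423-5p was 16196 CPM and its Control median 10477 CPM.

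**Figure D3:**
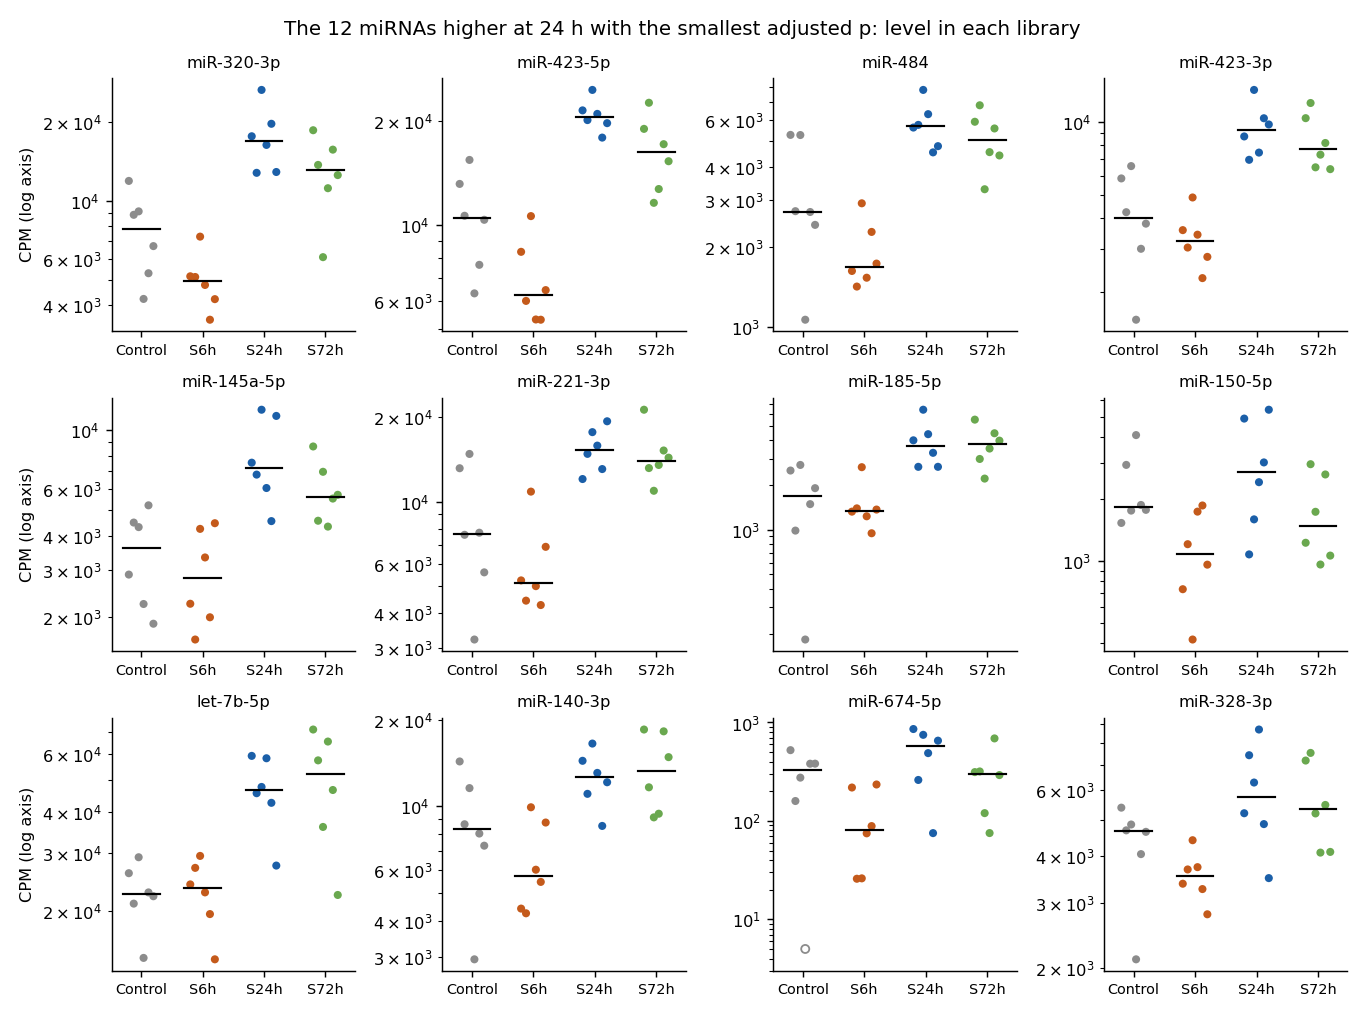
The level of the 12 higher miRNAs with the smallest adjusted p in each of the 24 libraries (CPM, log axis), drawn as for the lower miRNAs, with bars at the group medians and an open circle at 0 counts. The S24h points of the miRNAs in the upper row, of miR-145a-5p, of miR-221-3p and of miR-185-5p lie wholly above the S6h points.

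Of the other higher miRNAs, miR-221-3p, of endothelium and smooth muscle, lay between 4263 and 10854 CPM at 6 h (median 5102) and between 12040.3 and 19377 CPM at 24 h (median 15335), without overlap (log2 fold change 1.34, standard error 0.31, adjusted p = 0.00212). miR-185-5p had medians of 1343 and 3634 CPM, also without overlap (log2 fold change 1.39, standard error 0.39, adjusted p = 0.0113). miR-339-5p rose from 177 to 450.1 CPM to 478 to 1303 CPM (log2 fold change 1.31, standard error 0.46, adjusted p = 0.0413). miR-140-3p, known from cartilage, had medians of 5744 and 12587 CPM with overlapping groups (log2 fold change 0.96, standard error 0.31, adjusted p = 0.0272). miR-191-5p, an abundant miRNA of blood cells often used as a reference, had 26986 and 51067 CPM (log2 fold change 0.80, standard error 0.29, adjusted p = 0.0431). Among the smaller called changes were those of miR-328-3p (log2 fold change 0.76, standard error 0.26, adjusted p = 0.0404) and miR-151-5p (log2 fold change 0.87, standard error 0.30, adjusted p = 0.0413). The largest fitted increase belonged to miR-196b-5p of the Hox clusters, which was at 0 in 5 S6h libraries and in 1 S24h library and had at most 22 counts (log2 fold change 4.05, standard error 1.44, adjusted p = 0.0431). The calls of miR-339-5p, miR-140-3p, miR-191-5p, miR-328-3p, miR-151-5p and miR-196b-5p were each lost in 5 to 9 of the 12 fits that left out a mouse, and those of miR-221-3p and miR-185-5p in none.

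The let-7 family, which rises as cells mature and is among the most abundant in serum EVs, had 9 tested members. One was called higher (11.1%, against 6.43% of all tested) and none lower (median log2 fold change 0.67, and 0.17 with the depth covariate). let-7b-5p lay between 14320.2 and 29457 CPM at 6 h (median 23494) and between 27538 and 59184 CPM at 24 h (median 46635) (log2 fold change 1.03, standard error 0.29, adjusted p = 0.0113). let-7a-5p (log2 fold change 0.92, adjusted p = 0.0719), let-7c-5p (0.69, adjusted p = 0.0681) and let-7f-5p (0.67, adjusted p = 0.210) were not called. The number called depended on the scaling, with 4 higher by RLE or upper-quartile scaling, 3 on column totals, 6 with DESeq2 and none with the depth covariate, and no member was lower under any of these. The family held 10.3% to 25.0% of all counts at 6 h (median 18.8%), 24.0% to 36.7% at 24 h (median 31.4%) and 12.7% to 22.2% in Control (median 17.9%). Its members differ from each other by few bases, so that reads with an error can be counted for a relative. Some further abundant miRNAs had a 95% interval that left out 0 but were not called, among them miR-26a-5p (log2 fold change 0.80, adjusted p = 0.0719) and miR-378a-3p (1.15, adjusted p = 0.0968) with positive values, both of which were called higher with RLE, upper-quartile or total-count scaling and with DESeq2. On the negative side were miR-10b-5p (-0.84, adjusted p = 0.0740) and miR-148a-3p (-1.07, adjusted p = 0.117). The 4 tested miR-181 miRNAs were not called, and miR-181a-5p had a log2 fold change of 0.17 (95% interval -0.41 to 0.75). miR-103-3p, the reference of the study's qPCR assays, was not called (log2 fold change 0.51, 95% interval -0.04 to 1.06), and the other 5 miRNAs with an assay were all lower. With DESeq2 miR-103-3p was called higher. The study picked these assays from its own results on these mice, so they are not independent evidence.

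**Figure D4:**
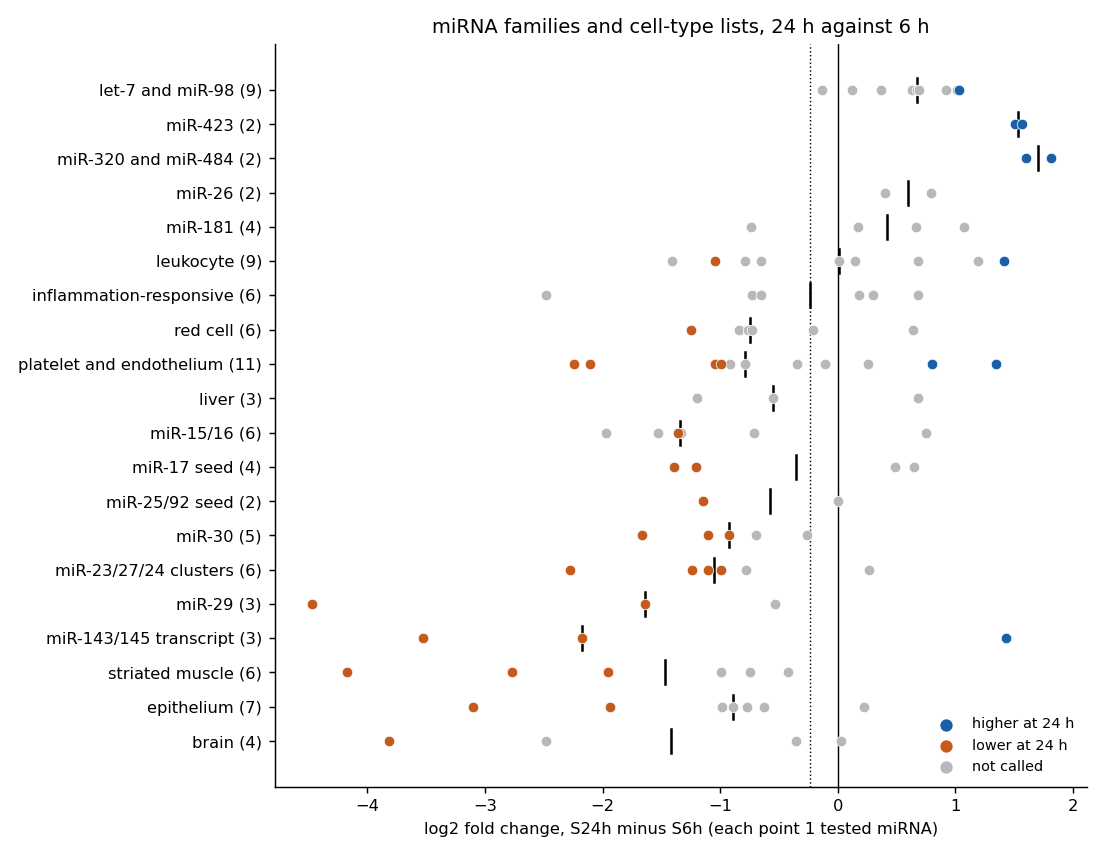
The log2 fold change of S24h against S6h of each tested miRNA in 20 families and cell-type lists (number tested in brackets), with black ticks at the list medians and the dotted line at the median of all 249 miRNAs, -0.24. miR-541-5p and the other miRNAs at 0 in every S24h library are in none of the lists drawn, and the transcript of miR-143 and miR-145a, the leukocyte list and the platelet and endothelium list hold called miRNAs in both directions.

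By shared seed, 69 of the tested miRNAs with a sequence fell into 24 families of 2 or more, and 13 families had a called member. Of all tested miRNAs 20.9% were called and 14.5% were lower. These are shares of single miRNAs, and a family with more members has more chances of a call. The count of families can therefore not be read against them. No family held called members in both directions. In 5 families 2 or more members were lower, those of miR-29, miR-30, miR-27, miR-93 and the duplicate miR-199, and in none were 2 or more higher. These counts depended on the scaling. With RLE or upper-quartile scaling 3 families, those of miR-29, miR-27 and miR-199, had 2 or more lower members and the let-7 family had 2 or more higher. On column totals there were 2 families with lower members, without miR-27, and again let-7 with higher ones. DESeq2 gave the same 3 families lower and added miR-26 to let-7 among the higher, and the depth covariate left miR-29 and miR-27.

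The arms of a hairpin could be compared within a library, which does not depend on the scaling. Of 18 hairpins with both arms measured at a mean of at least 20 counts, the ratio of 5p to 3p counts differed between 24 h and 6 h in 2 (11.1%, limma with Benjamini-Hochberg adjustment). For miR-145a the log2 ratio was 2.4 ± 1.15 at 6 h and 5.95 ± 1.01 at 24 h (SD, n = 6), with a difference of 3.55 (standard error 0.59, adjusted p = 0.000607). For miR-674 it was -4.0 ± 1.37 at 6 h and -1.14 ± 1.13 at 24 h, with a difference of 2.86 (standard error 0.69, adjusted p = 0.00940). The shift of miR-674 came with a rise of miR-674-5p, which had 25.9 to 235 CPM at 6 h and 75.2 to 858 CPM at 24 h (log2 fold change 2.19, standard error 0.76, adjusted p = 0.0393), and its counts were low, 4 to 49 at 6 h and 6 to 114 at 24 h. The call of miR-674-5p was lost in 8 of the 12 fits that left out a mouse. In both hairpins all 6 S24h ratios lay above the S6h median, and the groups overlapped. The next smallest p belonged to miR-151 (difference 1.21, 95% interval 0.18 to 2.24), miR-22 (1.29, 95% interval 0.17 to 2.42) and miR-142a (-1.02, 95% interval -2.13 to 0.08), none of which passed the adjustment (adjusted p = 0.123, 0.123 and 0.203).

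**Figure D5:**
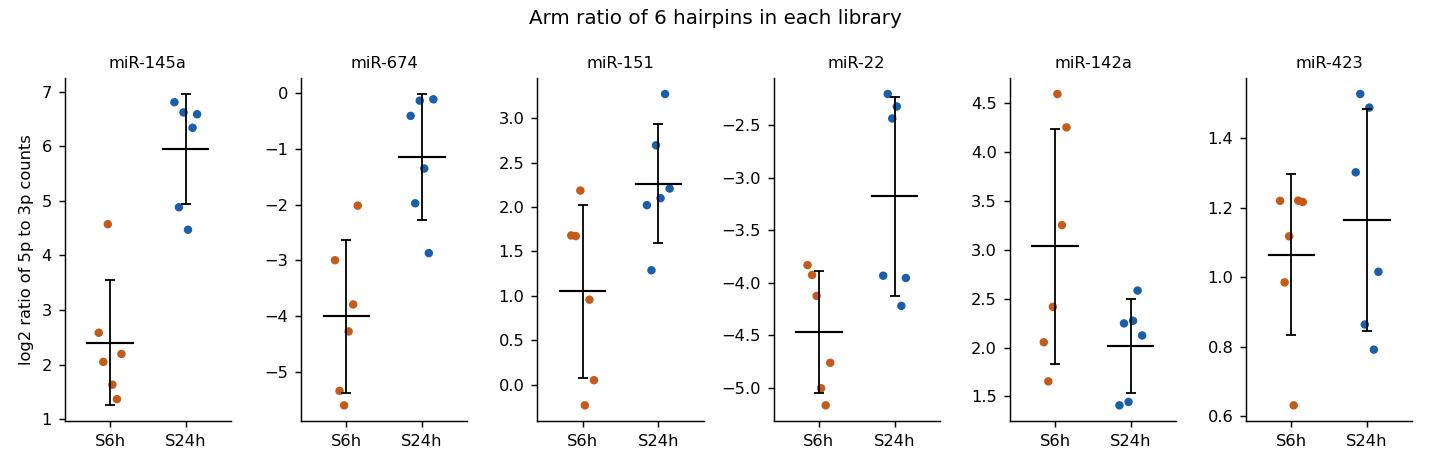
The log2 ratio of 5p to 3p counts of 6 hairpins in each S6h and S24h library, 1 point per mouse, with the mean as a bar and the SD as a whisker; each panel has its own axis. For miR-145a and miR-674 the mean is higher at 24 h and the points of both times overlap, and for miR-423 the means are 1.07 and 1.16.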

How the data were processed

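Read counts per mature miRNA, as deposited in one table of whole numbers without normalization, were used for 24 serum EV libraries matched to their groups through the sample labels. In the methods of the study, the authors isolated EVs from serum with a precipitation kit, trimmed adapters and random bases, aligned reads to GRCm38 with Bowtie, kept reads of miRNA length with SAMtools and counted them with featureCounts on miRBase. No use of the random bases to remove PCR copies is stated, so that intervals and limits cover counting error only. Adapter ligation differs between sequences, so that the tests of levels compare groups, and ranks of abundance between miRNAs hold for the counts only.

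One quasi-likelihood model of the 4 groups was fitted with edgeR 4.0.16 in R 4.3.3 on TMM-scaled counts, and S24h was contrasted with S6h. The filter was 10 CPM in 6 of the 12 libraries, and a call needed a p under 0.05 after Benjamini-Hochberg adjustment together with a 1.5-fold difference, thresholds of the paper, which used DESeq2. Levels are CPM of the scaled library sizes, and a fold change is on the log2 scale with a standard error from the F statistic. Where a group had 0 counts throughout, the fold is a bound against 3 counts per library. Total counts ranged from 66652 to 471801 over the 12 libraries, and 42 of the 249 tested miRNAs had a median count under 5. Arm ratios, log2 of counts plus 0.5, were tested with limma 3.58.1, and whole-library values by exact permutation over 924 assignments (SciPy 1.17.1), for which the smallest p is 0.00216. The edgeR p-values weigh the difference between S24h and S6h against the spread between mice within groups, estimated over all 4 groups. Those of limma use the spread within the 12 libraries. DESeq2 1.42.0, other scalings, filters and models and leaving out each mouse were the alternatives. The scripts were tested on simulated counts. No 2 libraries were identical.

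The miRNAs compared and the lists were chosen with earlier results of these data known. Named are, by rule, in each direction the 12 called miRNAs of smallest adjusted p, called and abundant list members, the study's qPCR targets, the 5 most abundant miRNAs and hairpins by arm ratio. The 8 called miRNAs outside the rule were added after their values were seen, and of 52 uncalled miRNAs that it names, 26 are given. Only 39 of the 52 called miRNAs had a sequence, and GC content is not reported.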

Additional observations from a re-analysis of the deposited data

Results flagged for a closer look

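For 5 of the named miRNAs a single mouse lay far from the other 5 of its group, with a gap to its neighbour that passed Dixon's critical value for 6 samples on the log2 scale. Among 115 groups of 6 values, chance gives about 5.75 such cases. miR-143-3p was low in S6h replicate 3, at 8415 CPM against 33780 CPM in the next library (gap 0.674 of the range). miR-29c-3p was low in S6h replicate 1, at 102 CPM against 335 CPM (0.633). miR-16-5p was high in S24h replicate 1, at 8117 CPM against 4725 CPM (0.638). miR-194-5p was low in S24h replicate 2, at 11.9 CPM against 133 CPM (0.752), and miR-203-3p in S6h replicate 2, at 259 CPM against 1057 CPM (0.660). The calls of miR-143-3p, miR-29c-3p and miR-16-5p held with each mouse left out.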

How the results depend on the processing

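All 52 called miRNAs kept their direction under 15 other settings, where tested, and with each mouse left out, while the number of calls moved. Among these settings, adjusted p alone and the test for a fold change above 1.5 reuse the main fit and could turn no direction. It was 21 (8 higher, 13 lower) with the log2 library total as a covariate and 24 (6 higher, 18 lower) when the test itself asked for a fold change above 1.5. DESeq2 gave 30 higher, and counts thinned to the smallest library 26 higher. RLE scaling gave 22 lower, upper-quartile scaling 22 and column totals 19. Leaving out 1 mouse gave 33 to 50 calls, with 9 to 18 higher and 22 to 33 lower, and 2 to 4 arm ratios. The same omissions gave differences of -1.30 to -0.86 in log2 total, of -52.9 to -37.1 detected miRNAs and of 0.241 to 1.74 percentage points in the share of the 10 most abundant. With miRNAs of at least 5 reads the difference in detection was -0.0526, and for the 5 most abundant miRNAs the share differed by -0.0574 percentage points. With a mean count of 100 per arm 0 of 5 arm ratios were called, and with a mean count of 5 there were 4 of 48. An arm of miR-145a and an arm of miR-674 lie below a mean of 100 counts, so that their ratios were not among those 5. Apart from thinning, filters and omissions, which remove counts or libraries, the cause of these moves was not tested. miR-21a-5p turned to -0.34 with the depth covariate. miR-92a-3p turned to -0.0697 with TMM scaling without the red cell miRNAs, to -0.00427 with the depth covariate and to -0.0148 with the filter on 24 libraries, and lay between -0.126 and 0.0877 with mice left out.

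Replicate numbers name mice and do not pair them. With a replicate block there were 46 calls, 14 higher and 32 lower, and 2 arm ratios. Deviations of mice with the same number correlated at -0.08 to 0.16, and 2 of 6 S6h mice correlated best with the S24h mouse of their own number.

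Depth limits the low miRNAs. A single read amounted to at least 10 CPM in 4 of the 12 libraries, and 21 miRNAs were tested with exactly 6 libraries at the minimum, against 20 left out with 5. The S24h libraries, which were shallower, also came from mice with daily analgesia.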
